A study of Homo sapiens with 6 samples.

Results

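The genes described here code for the subunits of the proteasome and were taken by name, as the rows of the deposited count table whose whole symbol is PSMA, PSMB, PSMC or PSMD followed by a number and nothing else, which leaves out pseudogene and antisense rows. The rule uses no measured value. It found 39 genes among the 54261 symbols of the table, of which 37 had enough reads to be tested. The cells were PC9/GR, a derivative of the human lung adenocarcinoma line PC9, and the study's title links MYLK-AS1 to glutamine use and to EGFR inhibitor resistance. The control group was 3 libraries from cells given a control small interfering RNA (siRNA, labelled si-NC), and the knockdown group was 3 libraries from cells given one directed at MYLK-AS1, an antisense transcript of the MYLK locus that codes for no protein. The siRNA sequence, its dose and the time of harvest are not stated in the labels. Both groups are the same line, so no parental PC9 and no drug arm enters the comparison. The labels do not say whether the repeats were separate cultures. The p-values therefore reflect the spread among these 6 libraries and no more, and that spread may be technical.

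The proteasome is the chamber in which cells degrade proteins marked with ubiquitin. Its core particle is a stack of rings, outer rings of alpha subunits (PSMA genes) that gate the entrance and inner rings of beta subunits (PSMB genes) that carry the protease sites. The regulatory particle caps the core. Its base holds a ring of ATPases that unfold the substrate (PSMC genes) with scaffold and ubiquitin-binding subunits, and its lid removes the ubiquitin chain (PSMD genes). After interferon, the inducible subunits PSMB8, PSMB9 and PSMB10 take the places of PSMB5, PSMB6 and PSMB7 and form the immunoproteasome, which favours peptides suited to display on MHC class I. When proteasome activity is short, the transcription factor NFE2L1 is known to raise subunit genes together through antioxidant response elements in their promoters.

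Library totals ran from 7551303 to 11055408 reads, and correlations of log2 CPM (CPM, reads of a gene scaled to a common library size) were at least 0.984 within a group and at most 0.965 between groups. Reads of MYLK-AS1, the targeted RNA, numbered 20, 16 and 19 in the control against 0, 5 and 4 in the knockdown (log2 fold change -2.43, SE 0.60, adjusted p = 0.00326 by edgeR's quasi-likelihood test, two-sided exact permutation p of CPM = 0.1, the smallest possible), and the 0 allows up to 0.274 CPM, taken as 3 counts. Of the 8 markers of lung epithelium, the keratins KRT8 and KRT18 made up most of the signal. The lung lineage genes NKX2-1 and NAPSA had 23 and 89 reads over all 6 libraries, and SFTPB had 0. EPCAM, also on the list, was low too, with 15, 16 and 14 reads in the control and 7, 5 and 4 in the knockdown. The summed epithelial markers stood at 8220 to 9210 CPM in the control and 4950 to 5470 CPM in the knockdown, where 4 of 6 tested fell and 1 rose. The part of that shift in the results below was not tested. PTPRC and CD3E of white blood cells and COL1A2 of fibroblasts had 0 reads, and summed endothelial markers did not exceed 1.0 CPM. The fibroblast list, nearly all COL1A1, was at 21.1 to 27.6 CPM in the control and 25.8 to 31.1 CPM in the knockdown. The signal of the leukocyte list was CD68 alone, a lysosomal protein of many cell types, at 168 to 240 CPM and 259 to 299 CPM. In bulk RNA, fewer cells with a transcript and less of it per cell cannot be told apart.

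The subunit genes did not move as a block. Of the 37 tested, 11 rose in the knockdown, 5 fell and 21 did not pass an adjusted p of 0.05. Without knockdown replicate 1, 3 fell, while 2936 of all tested genes fell in that fit against 3183 with all libraries. The members called amount to 43.2% of those tested, against 42% of all 15391 tested genes, so the number of calls was close to that of the table at large. Upward calls made up 29.7% of members against 21.3% of all tested genes, and downward calls 13.5% against 20.7%. The median log2 fold change was 0.18 over the tested members and -0.00050 over all tested genes. Of the 37 tested members, 25 lay above 0, against 49.9% of all tested genes. The SD of the log2 fold changes was 0.376 over the tested members and 0.713 over all tested genes. The groups were fully apart, with no overlap, for 15 members on the higher side and 6 on the lower, 56.8% together, against 52.2% of all tested genes (26.1% on each side). A change of at least 2-fold with a call was found for PSMD12 and PSMD10 alone, while 11.5% of all tested genes had one. The members without a call had log2 fold changes from -0.30 to 0.26 with SEs of 0.085 to 0.20, so changes of that order could go unseen here.

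**Figure D1:**
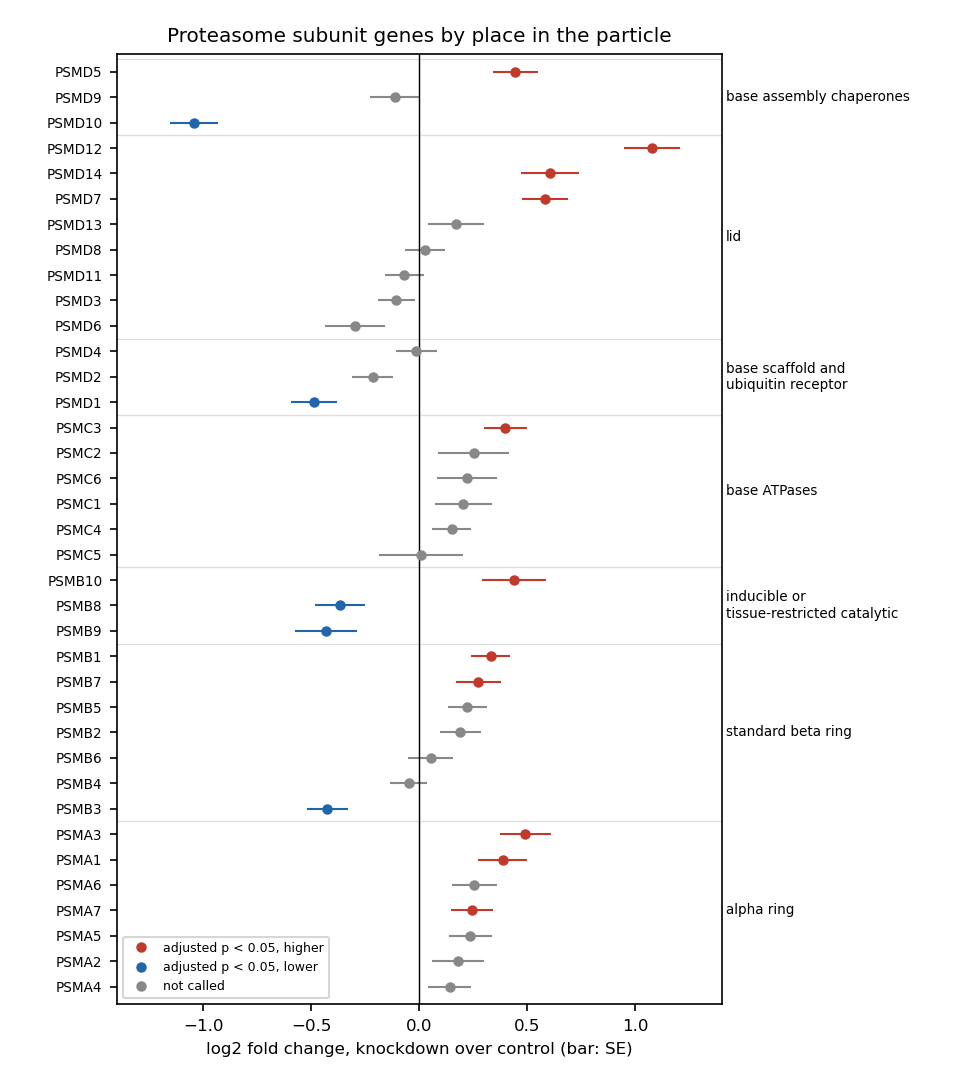
Log2 fold change of knockdown over control for the 37 tested subunit genes (horizontal axis, bars are SEs), grouped by place in the particle; red and blue mark an adjusted p under 0.05 upward and downward. All 7 alpha ring genes lie to the right of 0, as do 49.9% of all tested genes, while the lid and the assembly chaperones spread most widely, from PSMD10 at -1.04 to PSMD12 at 1.08.

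The lid held the gene with the greatest rise, and its members went apart. PSMD12, a scaffold subunit of the lid, stood at 44.6, 53.8 and 42.9 CPM in control replicates 1 to 3 and at 84.4, 95.9 and 119 CPM in knockdown replicates 1 to 3. Every knockdown library was above every control library, and the level rose 2.11-fold (log2 fold change 1.08, SE 0.13, adjusted p = 4.15e-06). Pseudogene rows named after PSMD12 hold 7.44% of the summed reads, and with them added the log2 fold change was 1.07 (adjusted p = 2.4e-06). PSMD14 is the metalloprotease that cuts the ubiquitin chain from the substrate, and PSMD7 is the inactive partner with which it pairs. PSMD14 measured 22.2, 25.1 and 21.1 CPM in the control and 30.8, 38.5 and 35.1 CPM in the knockdown (log2 fold change 0.61, SE 0.13, adjusted p = 0.00152). PSMD7 measured 153, 147 and 158 CPM in the control and 205, 208 and 273 CPM in the knockdown (0.58, SE 0.11, adjusted p = 0.000311). Neither gene's groups overlapped, and both members of the enzyme pair rose. An annotated transcript on the opposite strand, AC009120.2, shares 30.7% of the annotated exon bases of PSMD7, and whether strand was used in counting is not given in the sources used here.

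The other lid genes did not pass. PSMD13 had a log2 fold change of 0.17 (adjusted p = 0.313), PSMD8 of 0.03 (0.841), PSMD11 of -0.07 (0.573), PSMD3 of -0.11 (0.335) and PSMD6 of -0.30 (0.0898), all by the same edgeR test. These 5 and PSMD12 are the related structural subunits that form the frame of the lid. PSMD6 measured 44.5, 46.2 and 48.5 CPM in the control and 30.0, 39.0 and 44.8 CPM in the knockdown, so that its groups met only through knockdown replicate 3. Over the 8 lid genes, 3 rose and 0 fell, beside 21.3% and 20.7% of all tested genes, with a median of 0.10 on the log2 scale. The called share was 37.5%, against 42% of all tested genes.

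PSMD12 (GRCh38 chromosome 17, 67337916 to 67366627, minus strand) is shown with the 300 bases around its start, since it rose most and since its promoter holds the core of an antioxidant response element. The window, from RefSeq (GRCh38.p14), is chr17:67366528-67366827 and is written along the gene's strand. Capitals mark the core TGACNNNGC, which begins 165 bases before the start.

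PSMD12: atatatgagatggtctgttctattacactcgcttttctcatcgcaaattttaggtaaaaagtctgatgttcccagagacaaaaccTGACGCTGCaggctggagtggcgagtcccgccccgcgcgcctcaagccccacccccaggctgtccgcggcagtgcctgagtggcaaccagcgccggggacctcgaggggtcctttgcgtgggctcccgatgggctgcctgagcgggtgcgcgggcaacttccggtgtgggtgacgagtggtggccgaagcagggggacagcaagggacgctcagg

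Of the 3 chaperones that help assemble the base, 1 rose and 1 fell, beside 21.3% and 20.7% of all tested genes. Their median log2 fold change was -0.11. PSMD10, known as gankyrin, binds the ATPase PSMC4 during assembly and is also known to bind RB and MDM2. It measured 73.2, 69.9 and 73.3 CPM in control replicates 1 to 3 and 34.1, 33.0 and 38.2 CPM in knockdown replicates 1 to 3. The groups were far apart compared with their spread, and the level fell 2.06-fold (log2 fold change -1.04, SE 0.11, adjusted p = 1.08e-06). Its client PSMC4 had 302, 312 and 333 CPM in the control and 354, 323 and 375 CPM in the knockdown (0.15, SE 0.09, adjusted p = 0.192).

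PSMD5, a chaperone that binds the ATPases PSMC1 and PSMC2, rose. It measured 55.4, 52.7 and 49.4 CPM in the control and 67.8, 74.9 and 71.8 CPM in the knockdown (log2 fold change 0.45, SE 0.10, adjusted p = 0.00238). PSMD9, which binds PSMC3 and PSMC6, had 43.6, 46.5 and 51.3 CPM in the control against 44.0, 44.4 and 42.3 CPM in the knockdown (-0.11, SE 0.11, adjusted p = 0.454). The PSMD9 groups overlapped.

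**Figure D2:**
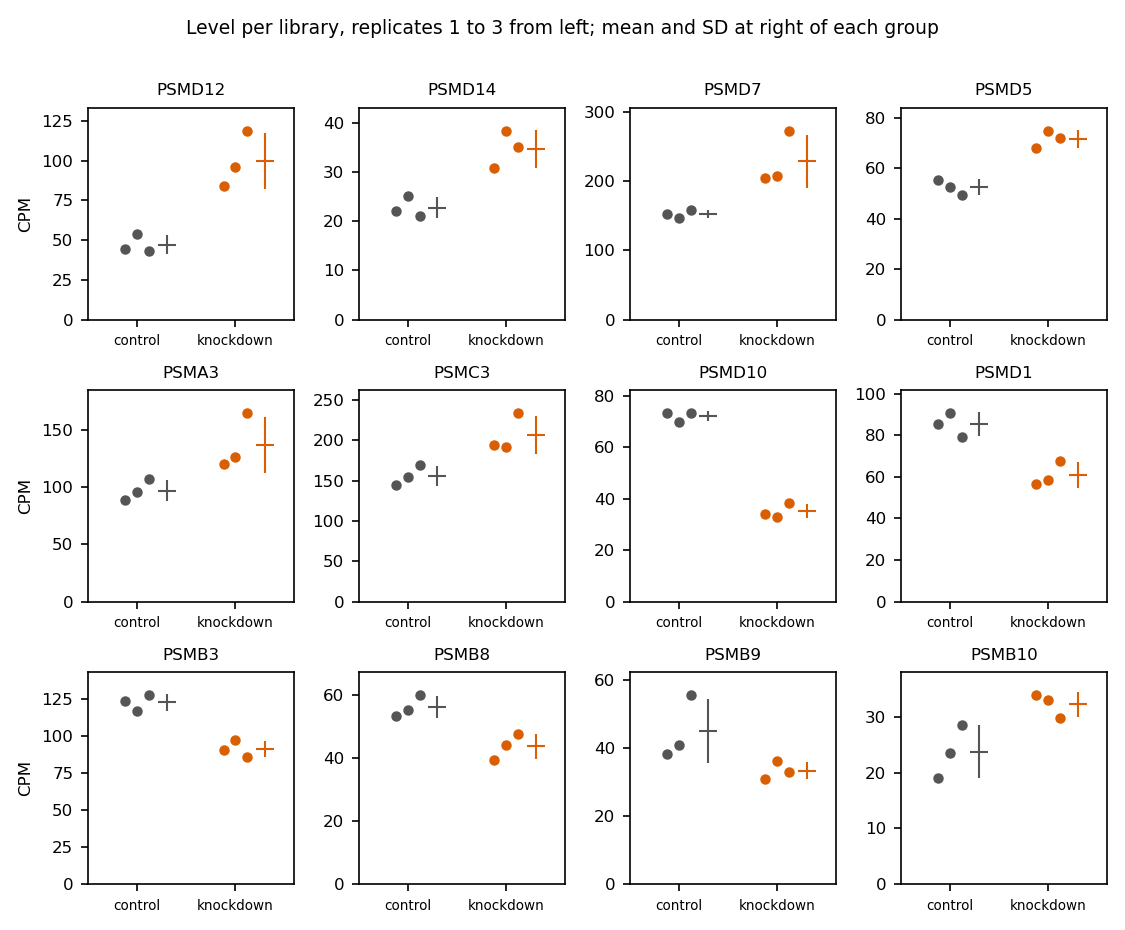
CPM in each library (vertical axes, each from 0) for 12 subunit genes, control replicates 1 to 3 in grey and knockdown replicates 1 to 3 in orange, with the mean and SD beside each group. In all 12 genes the groups do not overlap. Knockdown replicate 3 is the highest knockdown library for PSMD12 (119 CPM), PSMD7 (273 CPM), PSMA3 (165 CPM) and PSMC3 (234 CPM), which rose. The same holds for PSMD10 (38.2 CPM), PSMD1 (67.8 CPM) and PSMB8 (47.4 CPM), which fell.

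In the base, the scaffold PSMD1 fell and 1 ATPase rose. PSMD1, the large subunit on which the ubiquitin receptor ADRM1 docks, measured 85.6, 90.8 and 79.3 CPM in the control and 56.4, 58.4 and 67.8 CPM in the knockdown (log2 fold change -0.49, SE 0.11, adjusted p = 0.00139). Every control library was above every knockdown library. PSMD2, the other large scaffold, had 304, 311 and 296 CPM against 248, 241 and 297 CPM, with knockdown replicate 3 among the control values (-0.22, SE 0.09, adjusted p = 0.0766), and the ubiquitin receptor PSMD4 had a log2 fold change of -0.01 (adjusted p = 0.921).

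Of the 6 ATPase genes, PSMC3 passed, a called share of 16.7% against 42% of all tested genes. It measured 145, 154 and 169 CPM in the control and 194, 191 and 234 CPM in the knockdown (log2 fold change 0.40, SE 0.10, adjusted p = 0.00394). The other 5 had log2 fold changes from 0.01 for PSMC5 to 0.25 for PSMC2, and the median of the 6 was 0.21. The levels in this group were uneven. PSMC1, PSMC2 and PSMC5 stood at 3.49, 3.39 and 3.69 CPM per kilobase of annotated exon in the control, against 132 for PSMC4 and 68.7 for PSMC3. The ATPases sit in the ring in equal number, but that holds for protein, and these are RNA counts. The kilobases are all annotated exon bases of a gene, merged over its transcripts, and were 6161 bases for PSMC1, 3547 for PSMC2 and 4490 for PSMC5. For PSMC4 they were 2387 bases. PSMC5 shares 19.5% of its exon bases with FTSJ3. The part of counting in these differences was not tested.

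More reads were counted to pseudogenes of PSMC1 than to PSMC1 itself. The table holds 37 rows for pseudogenes named after 15 of the subunit genes, and the 13 named after PSMC1 hold 9315 reads against 1336 for PSMC1 itself, or 87.5% of the sum. Nearly all fell in PSMC1P1, a pseudogene on chromosome 3 (68635705 to 68637024), where the control libraries had 1138, 1346 and 1577 reads and the knockdown libraries 1794, 1789 and 1335. In addition, 75.8% of the annotated exon bases of PSMC1 lie within exons of NRDE2 on the opposite strand. PSMC1 alone had 22.6, 21.5 and 20.5 CPM in the control and 23.0, 25.8 and 25.7 CPM in the knockdown (log2 fold change 0.20, SE 0.13, adjusted p = 0.233). Summed with its pseudogene rows, an analysis chosen after the data were seen, it rose by 0.37 (SE 0.09, adjusted p = 0.00353). The same sum left PSMC6, with 42.4% of its reads in pseudogene rows, without a call (0.10, adjusted p = 0.528), and brought the number of members that rose to 12. In that fit 3273 of all tested genes rose. Which gene the reads of these rows came from was not tested, so the values of PSMC1 and PSMC6 are uncertain.

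In the alpha ring, all 7 tested genes had a positive log2 fold change, beside 49.9% of all tested genes. They ran from 0.14 for PSMA4 to 0.49 for PSMA3, with a median of 0.25. Of these genes 3 rose and 0 fell, beside 21.3% and 20.7% of all tested genes. The called share of 42.9% was close to the 42% of all tested genes. PSMA3 measured 88.8, 95.5 and 107 CPM in the control and 120, 126 and 165 CPM in the knockdown (log2 fold change 0.49, SE 0.12, adjusted p = 0.00277). PSMA1 measured 156, 141 and 150 CPM in the control and 166, 183 and 235 CPM in the knockdown (0.39, SE 0.11, adjusted p = 0.0109). Both genes were highest in knockdown replicate 3, and without that library PSMA1 lost its call (0.24, adjusted p = 0.0624). PSMA1 shares 24.7% of its annotated exon bases with AC018523.2.

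PSMA7 was at the edge of the threshold. It measured 247, 259 and 271 CPM in the control and 295, 279 and 348 CPM in the knockdown (log2 fold change 0.25, SE 0.10, adjusted p = 0.0492). Its adjusted p was 0.168 without control replicate 1, 0.122 without control replicate 2, 0.0589 without knockdown replicate 1 and 0.185 without knockdown replicate 3, where its log2 fold change was 0.15. It also missed the threshold with DESeq2 (0.0551), limma-voom (0.0565), upper quartile factors (0.0729), no factors (0.0674) and a filter of 5 CPM in 3 libraries (0.0747). PSMA2, PSMA4, PSMA5 and PSMA6 did not pass, at adjusted p of 0.252, 0.277, 0.0652 and 0.0603 by edgeR. PSMA8, the alpha subunit of the testis, had 0 reads in every library, which allows up to 0.274 to 0.410 CPM.

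Among the 7 standard beta genes, 2 rose and 1 fell, beside 21.3% and 20.7% of all tested genes. The called share was 42.9%, against 42% of all tested genes, and the median log2 fold change was 0.19. PSMB1, a structural subunit without a protease site, measured 171, 180 and 191 CPM in the control and 224, 214 and 244 CPM in the knockdown (log2 fold change 0.33, SE 0.09, adjusted p = 0.00686). PSMB3, another subunit without a protease site, went the other way, from 124, 117 and 128 CPM to 90.4, 97.3 and 86.3 CPM (-0.43, SE 0.09, adjusted p = 0.00151). The groups were apart for both, in opposite directions, although the genes code for parts of the same ring. PSMB2 (0.19, adjusted p = 0.114) and PSMB4 (-0.05, adjusted p = 0.685), also structural, did not pass.

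Of the 3 standard catalytic subunits, PSMB7 was the one with a call. PSMB5, which cuts after hydrophobic residues and is the main target of bortezomib, measured 276, 269 and 284 CPM in the control and 306, 312 and 350 CPM in the knockdown. Its groups did not overlap, and its log2 fold change of 0.22 (SE 0.09) just missed the threshold (adjusted p = 0.0504). It passed with DESeq2 (0.0497), without control replicate 3 (0.0345) and without knockdown replicate 1 (0.0470). PSMB6, which cuts after acidic residues, measured 292, 245 and 327 CPM against 294, 282 and 323 CPM (0.05, SE 0.10, adjusted p = 0.710). PSMB7, which cuts after basic residues, measured 100, 108 and 125 CPM against 143, 121 and 139 CPM, with overlap of the groups, and passed narrowly (0.27, SE 0.10, adjusted p = 0.0430). The call of PSMB7 was lost without control replicate 1 (0.198), control replicate 2 (0.136), knockdown replicate 1 (0.139) or knockdown replicate 3 (0.0909), and with DESeq2 (0.0532), upper quartile factors (0.0671), no factors (0.0603) or the filter of 5 CPM (0.0680).

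The 3 inducible catalytic subunits split. PSMB8 fell, from 53.2, 55.2 and 59.9 CPM in control replicates 1 to 3 to 39.4, 44.1 and 47.4 CPM in knockdown replicates 1 to 3 (log2 fold change -0.37, SE 0.12, adjusted p = 0.0164). PSMB9 fell, from 38.2, 41.0 and 55.6 CPM to 31.0, 36.1 and 33.0 CPM (-0.43, SE 0.14, adjusted p = 0.0216). PSMB10 rose, from 19.1, 23.6 and 28.6 CPM to 34.0, 33.1 and 29.8 CPM (0.44, SE 0.15, adjusted p = 0.0237). However, 34.8% of the annotated exon bases of PSMB10 are shared with AC040162.1. Since the use of strand is not stated, some of its reads may belong to that gene. The groups did not overlap in any of the 3 genes, as in 52.2% of all tested genes, but the gap was small for PSMB9 and PSMB10. The call of PSMB8 was lost without knockdown replicate 1 (adjusted p = 0.0752). That of PSMB9 was lost without control replicate 3 (-0.25, adjusted p = 0.124), knockdown replicate 1 (0.0838) or knockdown replicate 3 (0.0538). That of PSMB10 was lost without control replicate 1 (0.141), control replicate 2 (0.0691), knockdown replicate 1 (0.0708) or knockdown replicate 2 (0.0685). PSMB11, the catalytic subunit of the thymus, had 2 reads in knockdown replicate 1 and 0 elsewhere and was not tested.

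Set against the standard subunit that each replaces, a ratio that does not depend on library size, the inducible subunit was lower in every knockdown library for 2 of the 3 pairs. The log2 ratio of PSMB8 to PSMB5 was -2.38, -2.28 and -2.24 in the control and -2.96, -2.82 and -2.88 in the knockdown, a difference of -0.59. The log2 ratio of PSMB9 to PSMB6 was -2.94, -2.58 and -2.56 in the control and -3.24, -2.97 and -3.29 in the knockdown, a difference of -0.47. For both pairs the groups did not overlap, and the two-sided exact permutation p was 0.1, the smallest that 3 against 3 libraries can give (0.15 after Benjamini-Hochberg adjustment over the 3 pairs). The log2 ratio of PSMB10 to PSMB7 was -2.38, -2.19 and -2.12 in the control and -2.07, -1.86 and -2.22 in the knockdown, a difference of 0.18 with overlap of the groups (exact permutation p = 0.3, adjusted 0.3).

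**Figure D3:**
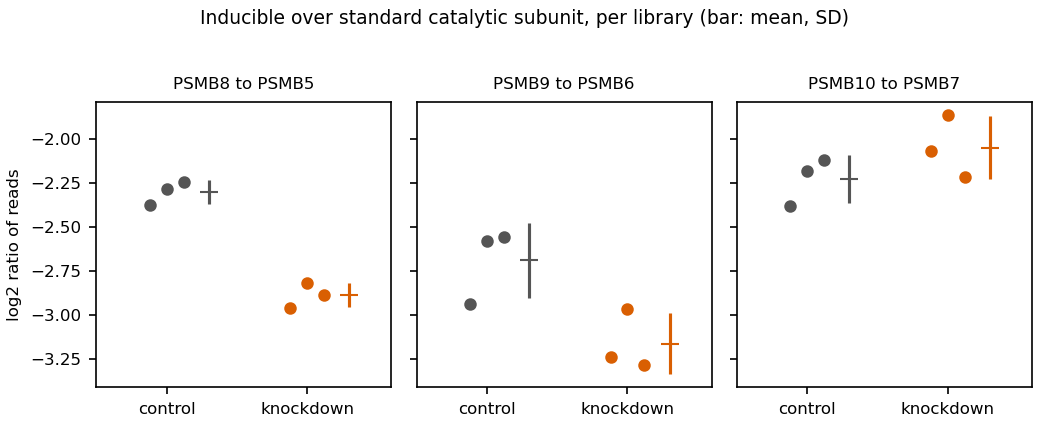
Log2 ratio of reads of each inducible catalytic subunit to the standard subunit it replaces (shared vertical axis), for control (grey) and knockdown (orange) replicates 1 to 3, with mean and SD. The ratio is lower in every knockdown library for PSMB8 to PSMB5 (difference -0.59) and PSMB9 to PSMB6 (-0.47), while the groups overlap for PSMB10 to PSMB7 (0.18).

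PSMB8 and PSMB9 lie in the MHC class II region of chromosome 6, and their annotated spans overlap. PSMB8 is at 32840717 to 32844703 on the minus strand and PSMB9 at 32844136 to 32859585 on the plus strand of GRCh38. The promoter window used for PSMB9 below, chr6:32853942-32854241, lies inside this span and not at its edge. Of the annotated exon bases of PSMB8, 20.6% are shared with PSMB9 or with the antisense gene PSMB8-AS1, which itself fell (19, 21 and 22 reads in the control, 7, 5 and 9 in the knockdown, log2 fold change -1.405, SE 0.42, adjusted p = 0.0120). Since the use of strand is not stated, reads of these 3 genes cannot be fully told apart. TAP1, the peptide transporter gene, lies within the annotated span of PSMB9 on the opposite strand, at 32845209 to 32853978. Picked out after its values were seen, TAP1 had 126, 124 and 149 CPM in the control and 136, 181 and 173 CPM in the knockdown (0.30, SE 0.11, adjusted p = 0.0406). That call was lost without control replicate 1 (0.127), control replicate 2 (0.154), knockdown replicate 2 (0.194) or knockdown replicate 3 (0.109), and with limma-voom (0.0571), upper quartile factors (0.0597), no factors (0.0595) or the filter of 5 CPM (0.0645). The log2 ratio of PSMB9 to TAP1 was -1.72, -1.59 and -1.42 in the control and -2.13, -2.32 and -2.38 in the knockdown. The difference was -0.70, without overlap. This ratio was formed after the values of TAP1 were seen, with PSMB9 called lower and TAP1 called higher. Its separation is therefore a description and not a test.

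PSMB8 and PSMB10 are shown at the core of an interferon-stimulated response element, GAAA followed after 2 bases by GAAA on either strand, because both carry it near the start and yet differ in direction. The sequences are from RefSeq (GRCh38.p14), along the gene's strand, with the core in capitals. For PSMB8 the window is chr6:32844033-32844060 at 1 of its 2 listed starts. The core there is on the opposite strand, begins 4 bases before that start and runs across it. For PSMB10 the window is chr16:67936853-67936880, and the core begins 21 bases before the start.

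PSMB8: atctgtggcTTTCGCTTTCacttcctcc

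PSMB10: ggtaaaggcGAAAGCGAAAgcaggaagt

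Of the 34 subunit genes in the promoter table (all but PSMA7, PSMB1, PSMB6, PSMB7 and PSMD4), 4 held this core within 250 bases before to 50 after a listed start (11.8%, against 4.38% of the 27305 genes in the table and 3.83% of the tested genes in it). The other 2 were PSMA4 and PSMB4, neither of which passed the test. Of the 4, 1 rose, 1 fell and 2 did not pass, beside 21.3% of all tested genes that rose and 20.7% that fell.

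The core of the antioxidant response element, TGACNNNGC on either strand, occurred in 10 of the 34 (29.4%, against 16.1% of all genes in the table and 19.5% of the 9705 tested genes in it). The 10 were PSMA4, PSMB3, PSMB9, PSMC4, PSMC5, PSMD1, PSMD3, PSMD5, PSMD9 and PSMD12. Of these, PSMD5 and PSMD12 rose, PSMB3, PSMB9 and PSMD1 fell, and 5 did not pass, with a median log2 fold change of -0.05. Among the 22 tested members of the table without the core, 6 rose and 2 fell, with a median of 0.21. Over all tested genes, 21.3% rose and 20.7% fell. A match is a run of letters and not a measured site. The sites of 4 further members with a call are shown because the same letters lie near the start of genes that moved in both directions. They lie at chr9:120843039-120843065 for PSMD5, chr17:38752628-38752654 for PSMB3, chr2:231056897-231056916 for PSMD1 and chr6:32854035-32854061 for PSMB9, each along the gene's strand with the core, or its complement on the opposite strand for PSMB9, in capitals.

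PSMD5: ggctacagtTGACACGGCcctaacgga

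PSMB3: cctccgtttTGACTTTGCaaccaaact

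PSMD1: ggaggcgacTGACTGAGCag

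PSMB9: ggcggggctGCCTCGTCActtgtctcg

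The 3' untranslated regions were read for AGCTTA, a word that was picked out in these same data after they had been seen, so its presence here is a description. It occurred in the longest annotated region of 5 of the 37 tested members (13.5%, against 27.6% of 11516 tested genes). These were PSMA5, PSMB2, PSMD6, PSMD10 and PSMD11. PSMD10, the member with the greatest fall, was the only 1 of the 5 with a call, and the other 4 had log2 fold changes of 0.24, 0.19, -0.30 and -0.07. The other members that fell, PSMB3, PSMB8, PSMB9 and PSMD1, did not hold the word. Its site in PSMD10 (chromosome X, 108084207 to 108091618, minus strand) is shown from transcript sequence of GENCODE release 29, with the word in capitals, starting at base 164 of 767 after the stop codon.

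PSMD10: acttgttcgaAGCTTAcagcttgttt

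Seen by library, knockdown replicate 3 stood somewhat apart from the others. Relative to each gene's control mean, the median member was at -0.03, -0.01 and 0.06 (log2) in control replicates 1 to 3 and at 0.09, 0.08 and 0.32 in knockdown replicates 1 to 3. This library, the one with the fewest reads, was the highest of the knockdown libraries for 26 of the 37 members, against 38.0% of all tested genes. Subunit reads made up 0.492%, 0.498% and 0.522% of all reads in the control and 0.516%, 0.520% and 0.572% in the knockdown. Without knockdown replicate 3, 8 members rose and 6 fell, and the median log2 fold change was 0.098 in place of 0.18. In that fit 3061 of all tested genes rose and 2971 fell, against 3274 and 3183 with all libraries.

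**Figure D4:**
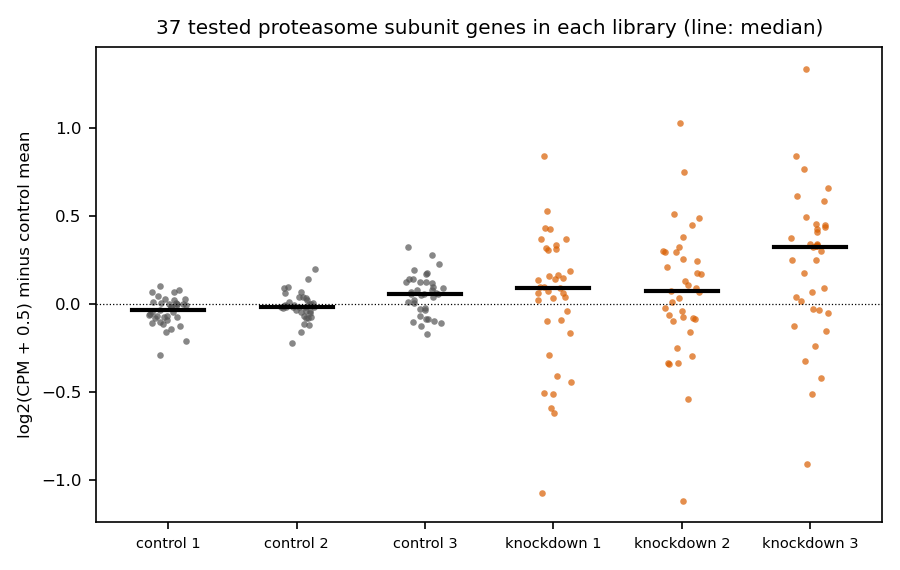
Each point is 1 of the 37 tested subunit genes in 1 library, as log2 of CPM plus 0.5 minus that gene's control mean (vertical axis), so control points lie near 0 by construction; horizontal positions within a library are arbitrary and black lines are medians. The medians of knockdown replicates 1 and 2 lie at 0.09 and 0.08, and that of knockdown replicate 3 at 0.32.

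Genes that work with the proteasome but lie outside the naming rule were read from lists by function. For 5 of these (assembly factors, alternative caps, ubiquitin receptors and shuttles, transcription regulators, antigen presentation partners) the median log2 fold changes were 0.40, 0.02, 0.04, 0.28 and 0.21, against -0.00050 over all tested genes. Of 7 tested assembly chaperones and related factors, 4 rose and 0 fell, beside 21.3% and 20.7% of all tested genes. POMP, which guides the closing of the core particle, had 51.9, 52.2 and 66.5 CPM in the control libraries and 77.0, 85.1 and 99.0 CPM in the knockdown libraries, and rose by 0.61 on the log2 scale (SE 0.12, adjusted p = 0.000688 by edgeR). AKIRIN2, which carries proteasomes into the nucleus, rose by 0.49 (adjusted p = 0.00601), and ECPAS, which clamps core and cap together and is listed as KIAA0368, by 0.40 (0.00751). PSMG1, a chaperone of the alpha ring, rose by 0.44 (adjusted p = 0.0336), a call lost without control replicate 1 (0.116), control replicate 2 (0.109), knockdown replicate 2 (0.0566) or knockdown replicate 3 (0.177), and with limma-voom (0.0550). Its partner PSMG2 had only 14 reads over all libraries and was not tested.

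The alternative caps split by kind, beside 21.3% of all tested genes that rose and 20.7% that fell. PSME3 and PSME4, the nuclear activators, rose: PSME3 by 0.71 on the log2 scale, with 182, 189 and 147 CPM in the control and 240, 286 and 320 CPM in the knockdown (SE 0.11, adjusted p = 0.000101 by edgeR), and PSME4 by 0.31 (adjusted p = 0.0167). PSME1 and PSME2, the interferon-inducible pair that caps immunoproteasomes, fell by 0.26 (adjusted p = 0.0301) and by 0.39 (adjusted p = 0.0364) on the log2 scale. PSME4 lost its call without knockdown replicate 2 (0.0860). PSME1 lost its call without control replicate 3 (0.0828), knockdown replicate 1 (0.105) or knockdown replicate 2 (0.117), and PSME2 without control replicate 3 (-0.21, adjusted p = 0.206) or any knockdown library (0.111, 0.0525 and 0.0844 for replicates 1 to 3). The inhibitor gene PSMF1 is listed at 0 in all 6 libraries.

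Of the 13 ubiquitin receptors, deubiquitinases and shuttles, 3 rose and 2 fell, beside 21.3% and 20.7% of all tested genes. SEM1, the smallest lid subunit, listed under its older symbol SHFM1 and outside the naming rule, had 79.6, 84.4 and 92.4 CPM in the control and 52.8, 59.3 and 62.2 CPM in the knockdown, and fell by 0.56 on the log2 scale (SE 0.11, adjusted p = 0.000419 by edgeR). It binds PSMD3 and PSMD6, neither of which passed. USP14, a deubiquitinase of the base that docks on PSMD2, fell by 0.46 (adjusted p = 0.00315). The shuttle UBQLN1 rose by 0.45 (adjusted p = 0.000761) and the proteasome-binding ZFAND5 by 0.39 (0.00326).

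UBA6, an E1 enzyme that starts the ubiquitin cascade, went from a mean of 17.2 ± 2.53 CPM to one of 31.8 ± 5.51 CPM (SD, n = 3 libraries each) and rose by 0.885 on the log2 scale (SE 0.16, adjusted p = 0.000244 by edgeR). The polyubiquitin gene UBB had a log2 fold change of 0.19 (adjusted p = 0.0858).

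Of the 8 tested regulators of subunit transcription, 4 rose and 0 fell, beside 21.3% and 20.7% of all tested genes. NFE2L2, the oxidative stress factor related to NFE2L1, had 123, 115 and 114 CPM in the control libraries and 168, 176 and 214 CPM in the knockdown libraries, and rose by 0.66 on the log2 scale (SE 0.10, adjusted p = 5.42e-05 by edgeR). Its small partner MAFG rose by 0.42 (adjusted p = 0.000765), and the ATPase VCP, which extracts NFE2L1 from the endoplasmic reticulum, by 0.34 (0.00366). NFE2L1 itself had 432, 445 and 425 CPM in the control and 545, 498 and 478 CPM in the knockdown (0.22, SE 0.09, adjusted p = 0.0476). That call was lost when any library but knockdown replicate 3 was left out (0.0602 to 0.168), and with upper quartile factors (0.0801), no factors (0.0774), no filter (0.0542) or the filter of 5 CPM (0.0782).

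Of the 10 tested interferon and antigen presentation partners, 4 rose and 2 fell, beside 21.3% and 20.7% of all tested genes. HLA-C (0.34, adjusted p = 0.00879), HLA-B (0.47, 0.0200) and the peptide trimming enzyme ERAP1 (0.45, 0.0164) rose, as did TAP1. Tapasin, TAPBP, which loads peptides onto MHC class I, fell by 0.30 (adjusted p = 0.0198). The second that fell, named after its value was seen, was the interferon regulator IRF1 (-0.29, 0.0466). HLA-C lost its call without control replicate 1 (0.0616), HLA-B without control replicate 2 (0.0877), knockdown replicate 2 (0.0931) or knockdown replicate 3 (0.0921), and ERAP1 without control replicate 3 (0.0580), knockdown replicate 2 (0.0597) or knockdown replicate 3 (0.0524). TAPBP lost its call without control replicate 3 (0.0701), knockdown replicate 1 (0.0562) or knockdown replicate 2 (0.0798), and IRF1 without control replicate 1 (0.155), control replicate 3 (0.0999), knockdown replicate 1 (0.165) or knockdown replicate 3 (0.108), and with DESeq2 (0.0579), limma-voom (0.0518) or no filter (0.0567). HLA genes are near-identical in parts, so reads may be shared among them.

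**Figure D5:**
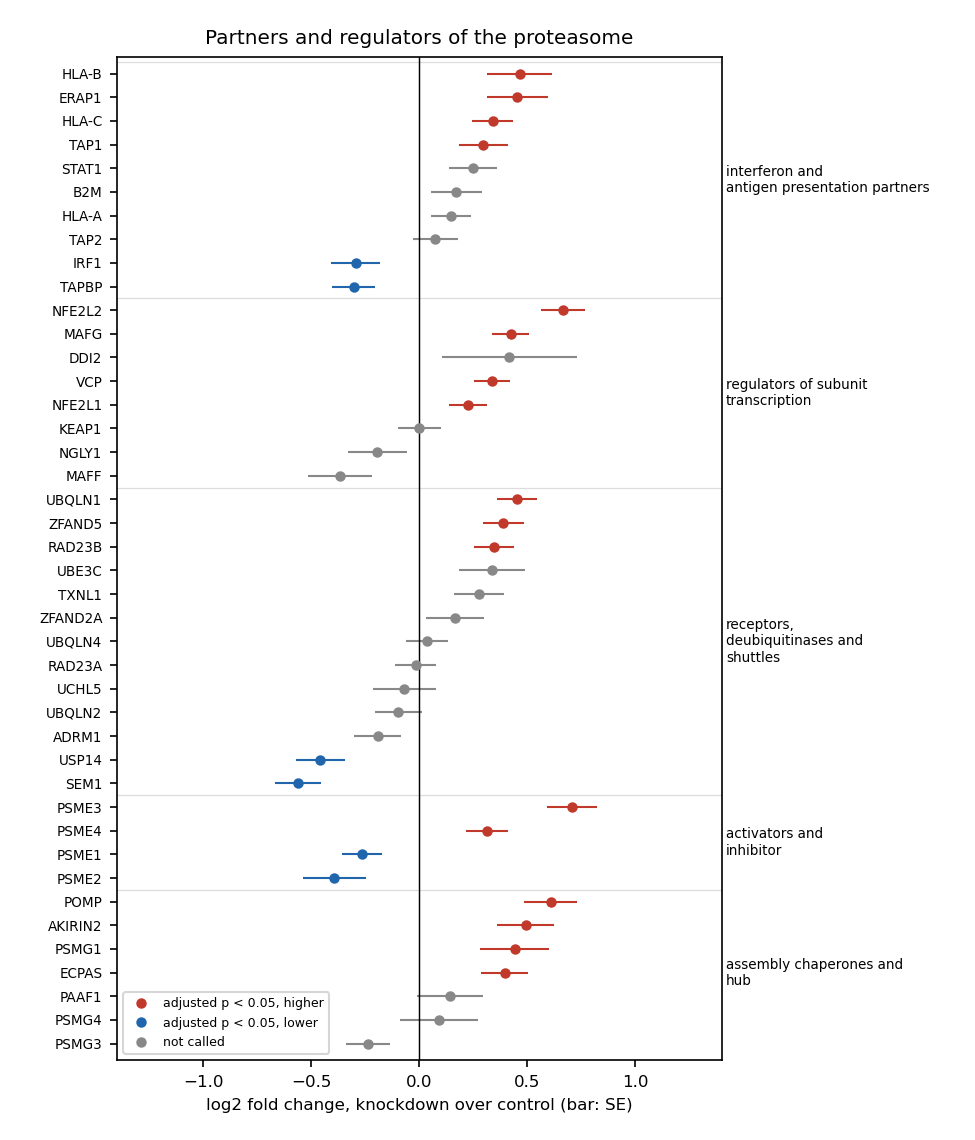
Log2 fold change of knockdown over control for the tested genes of 5 partner lists (horizontal axis, bars are SEs), colours as in the plot of the subunit genes. PSME3 at 0.71 and PSME4 at 0.31 lie opposite PSME1 at -0.26 and PSME2 at -0.39, and SEM1 at -0.56 is the lowest of the partners.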

How the data were processed

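Raw read counts for each gene symbol were deposited as 1 table of 6 libraries, made from Trizol RNA with an Ion Proton kit per the labels' protocols. Per the submitters' processing notes, reads were placed on GRCh38. Neither the aligner nor the counter, annotation or strandedness is stated there.

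Counts were tested with edgeR 4.0.16 in R 4.3.3 (filterByExpr, TMM factors, robust quasi-likelihood F test, group as the only term), with Benjamini-Hochberg adjustment over the 15391 genes that passed the filter and a threshold of 0.05. The SE is the log2 fold change divided by the square root of F, an approximation. Ratios of subunits used counts plus 0.5. The fit was tested on simulated data with 200 changed genes and the same dispersion for every gene. Since 6457 genes were called in the data, that setting differs from them and does not measure the error of the calls here. Exon lengths and overlaps came from GENCODE release 29 and promoters from RefSeq, where 34 of the 39 genes matched. Library pairs within a group differed by a chi-square per degree of freedom of at least 2.25, beyond sampling noise.

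The members, the lists and the tests were chosen with earlier results of these data known. Values in every library are given for the members past the threshold and for PSMB5 to PSMB10, and from each list up to 4 genes with the lowest p. PSMC1, PSMC4, PSMD2, PSMD6, PSMD9, TAP1 and IRF1 were added with their values in view. The alternatives tried included RLE, upper quartile or no factors, no filter (at least 1 read) or 5 CPM in 3 libraries, DESeq2 1.42.0, limma-voom (limma 3.58.1), each library left out, the repeat number as a block, a threshold of 0.01 and sums with pseudogene rows, the last added after the data were seen. Intervals from floors cover counting error only. Some listed genes are not reported here.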

Additional observations from a re-analysis of the deposited data

How the results depend on the processing

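Against 11 members that rose and 5 that fell, the alternatives gave 9 to 13 and 5 or 6, apart from a threshold of 0.01, which left 7 and 3, and the fits without 1 library, which gave 8 to 13 that rose and 3 to 6 that fell. Over all tested genes, 3274 rose and 3183 fell in the main fit, against 2234 and 2134 at 0.01. The fits without 1 library gave 2646 to 3176 and 2527 to 2971, and the other alternatives 2744 to 3485 and 2766 to 3381. The 3 members that fell came without knockdown replicate 1, where 2936 of all tested genes fell. Leaving out a library reduces the samples tested. The median log2 fold change of the tested members stayed above 0 in every fit, from 0.098 without knockdown replicate 3 to 0.22 without knockdown replicate 1. PSMD12, PSMD14, PSMD7, PSMD5, PSMA3, PSMC3, PSMB1, PSMD10, PSMD1 and PSMB3 kept call and direction in all 16 alternatives, including the threshold of 0.01, with PSMD12 from 0.94 to 1.19 and PSMD10 from -1.10 to -0.997. PSMB6, without a call, changed sign without control replicate 2 (-0.051, adjusted p = 0.764, edgeR) and otherwise reached 0.15 without control replicate 3. The repeat number as a replicate block gave 13 members that rose, PSMB5 among them (adjusted p = 0.0383, edgeR), and 5 that fell, and ended the call of IRF1 (0.0544), but same-numbered libraries had correlations of deviations of only -0.0584, 0.0902 and 0.0732, and control replicate 1 correlated best with knockdown replicate 2, so the numbers were not taken to pair the samples. The ratios of PSMB8 to PSMB5, PSMB9 to PSMB6 and PSMB10 to PSMB7 kept their direction in every alternative. The SEs of PSMC5 (0.20) and PSMC2 (0.16) were wide, so changes of that size in these ATPases could not be detected.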
